A study of Mus musculus with 17 samples.

Results

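The 10 genes described here encode parts of the gp130 cytokine system: the ligand subunit Clcf1, the receptors Il6ra, Cntfr, Lifr, Osmr and Il6st, the kinases Jak1 and Jak2, the transcription factor Stat3 and the inhibitor Socs3. They were chosen by gene symbol, with earlier results of these libraries known, and make up 10 of the 58512 gene identifiers in the count tables. Signalling begins when a cytokine of this family brings gp130, the shared receptor chain encoded by Il6st, together with a more specific chain. Janus kinases held on the receptor tails then phosphorylate STAT3, which enters the nucleus and switches on target genes, among them Socs3, whose protein shuts the receptor off again. In astrocytes this route is known for its place in the reactive state that follows injury and demyelination.

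The RNA came from male mice of the genotype GFAP-Cre+/- Rpl22HA/wt, in which Cre driven by a GFAP promoter adds an HA tag to the ribosomal protein Rpl22. Mice were 8 to 9 weeks old when they began a 5-week diet that held 0.2% cuprizone, which binds copper and causes oligodendrocyte death. Corpus callosum was taken at 5 weeks (acute demyelination), at 5.5 weeks (0.5 weeks after withdrawal, early remyelination) and at 7 weeks (2 weeks after withdrawal, late remyelination), and mock mice of matched age ate a normal diet. Tagged ribosomes were pulled down and their RNA was sequenced, so the values describe ribosome-bound RNA in a precipitate. The 5-week libraries belong to batch 1 in the labels and all others to batch 2.

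Of the 17 deposited libraries, 8 repeated another library of their group, with 44.1% to 96.2% of well-counted genes 1 to 10 counts above it. Each set of repeats was used once. Of 80 member values in the files left out, 72 were within 10 counts of the library kept. That left 1 cuprizone and 1 mock library at 5 weeks, 3 cuprizone and 2 mock libraries at 5.5 weeks, and 1 of each at 7 weeks, with 20797535 to 30400048 counts per library. Differences at 5.5 weeks were tested with edgeR, while those at 5 and 7 weeks have no replicate check and carry 95% counting intervals only. These intervals do not cover which file of a set of repeats was kept. Astrocyte markers summed to 6353 to 13120 CPM (counts scaled to the library's total, corrected by the trimmed mean of M values, TMM) in the 9 libraries, beside 9792 to 23160 for mature oligodendrocyte markers and 5896 to 12040 for neuron markers. No library of input RNA was used here, so enrichment for astrocytes was not measured.

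The cuprizone library of 7 weeks stood apart. It held a count for 34576 genes, against at most 23980 in any other library used, and 6558 of its genes were in no other. Its summed endothelial markers reached 260.6 CPM against at most 7.18 elsewhere, and its microglial markers 762 CPM against at most 62.5. Pericyte and fibroblast markers reached 285.6 CPM against at most 78.6. Every 7-week value below rests on that library, and the part these other cells had in it was not tested.

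**Figure D1:**
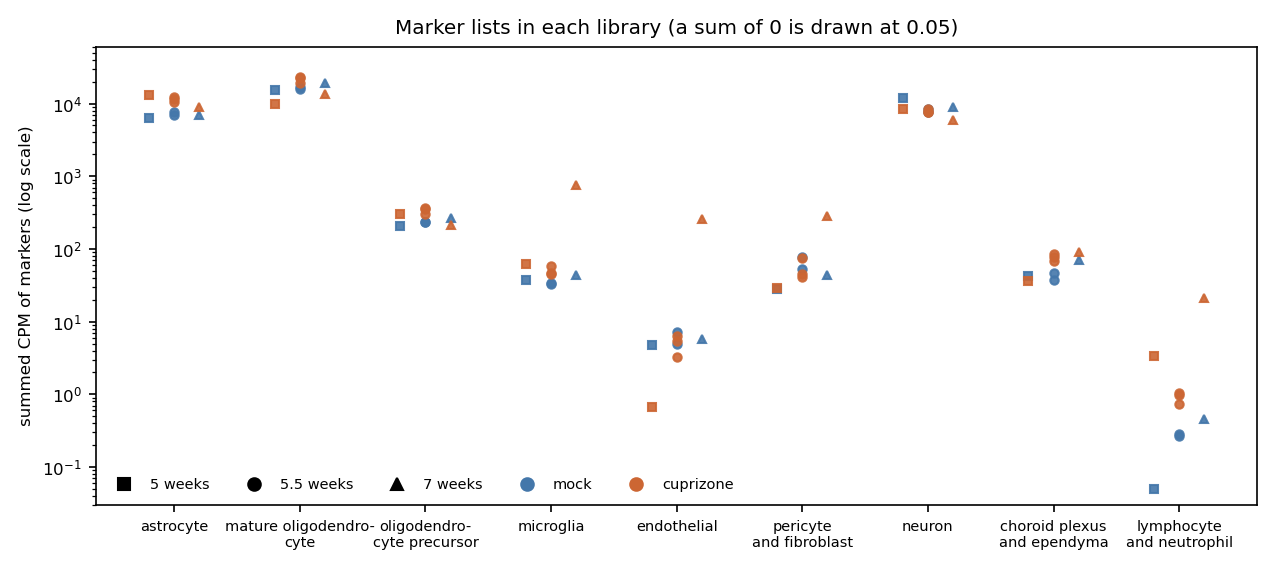
Summed CPM of 9 marker lists (log scale) in each library, by week (square 5, circle 5.5, triangle 7) and diet (blue mock, orange cuprizone). The orange triangles of the microglial (762 CPM) and endothelial (260.6 CPM) lists lie far above all other libraries.

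Levels of the 10 genes were compared after CPM was divided by exon length in kilobases (GENCODE M21). In the 4 mock libraries the order by median CPM per kb was Jak1 at 24.5, Cntfr at 18.2, Stat3 at 10.2, Lifr at 5.65, Il6st at 4.89, Jak2 at 3.01, Socs3 at 0.613, Osmr at 0.135, Il6ra at 0.134 and Clcf1 at 0.0295. The ranges over libraries overlapped between the neighbours Jak1 and Cntfr, Lifr and Il6st, Socs3 and Osmr, and Osmr and Il6ra. Kinases, Stat3 and the chains gp130, Lifr and Cntfr were therefore all well represented in mock tissue, whereas Osmr and Il6ra were close to the bottom of the range.

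**Figure D2:**
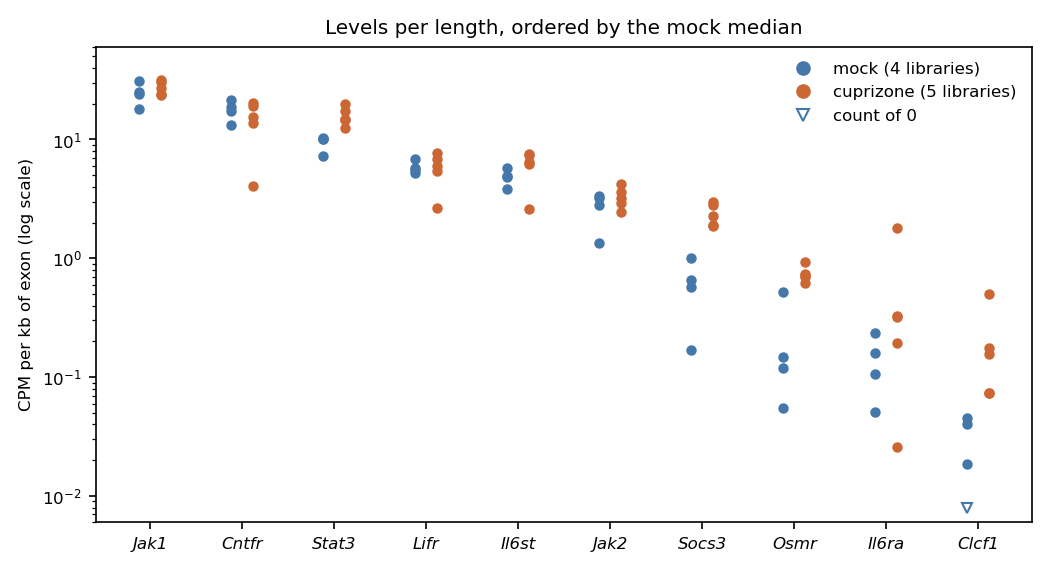
CPM per kilobase of exon (log scale) of the 10 genes in 4 mock (blue) and 5 cuprizone (orange) libraries, ordered by the mock median. Jak1 (24.5) and Cntfr (18.2) lead and Clcf1 (0.0295) is last, and the blue and orange points of Osmr, Socs3, Stat3 and Clcf1 do not overlap.

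At 5.5 weeks, the week with replicates, Osmr, Stat3 and Socs3 rose in cuprizone tissue and no member fell. Of the 10 genes, 9 passed the filter on low counts (Clcf1 did not), and 3 of the 9 were called higher at an edgeR adjusted p under 0.05. Over the 16086 genes tested, 1.08% were called higher and 0.392% lower, 1.47% in all. At an unadjusted p under 0.05, 4 members were higher and 0 lower, and DESeq2 and limma-voom each called 3 higher and 0 lower. The median log2 difference of the 9 tested members was 0.33, beside 0.00 over all genes. Nothing in the labels says which libraries came from separate mice, so p-values measure the spread between libraries, which may be technical.

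Clcf1 (ENSMUSG00000040663, chromosome 19), a secreted ligand that acts through the CNTF receptor, was the least abundant member. At 5.5 weeks it stood at 0.282, 0.602 and 0.278 CPM in the cuprizone libraries and at 0.0708 and 0.154 CPM in the mock libraries. At 5 weeks it had 15 counts (0.666 CPM) in the cuprizone library and 0 in the mock library, which is at least 4.56-fold higher when the mock count is set to a floor of 3 counts in that library, while the lower limit of the 95% counting interval is 3.27-fold. The 7-week libraries held 56 and 5 counts, 1.91 against 0.174 CPM, an 11-fold difference with a counting interval of 4.44 to 35.2. All 5 cuprizone libraries used were above all 4 mock libraries used, on counts too few for a test at 5.5 weeks. Some files left out held more, 10 counts in 5.5-week mock 2 (2 in the library kept) and 14 in 7-week mock 1 (5 kept). In the 5.5-week cuprizone libraries 1 and 3 Clcf1 had 8 and 7 counts. This order and the 7-week fold therefore depend on the file kept. A noncoding gene on the same strand shares 311 of its exonic bases, and reads there cannot be told apart.

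Osmr (ENSMUSG00000022146, chromosome 15), the chain that joins gp130 to receive oncostatin M, had the widest gap between diets at 5.5 weeks. Its level was 8.91, 8.48 and 7.58 CPM in the cuprizone libraries and 1.80 and 1.46 CPM in the mock libraries. The groups were far apart, with every cuprizone library several times above either mock library. The difference was 2.33 on the log2 scale (SE 0.21), 5.04-fold, with an edgeR adjusted p of 0.000209, and the call held in 16 of 16 alternative analyses.

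The 5-week pair showed a much smaller gap for Osmr, 8.84 CPM in the cuprizone library and 6.33 CPM in the mock library. That is 1.40-fold, with a counting interval of 1.11 to 1.76. The 5-week cuprizone files left out held 300 and 202 counts of Osmr (199 in the library kept), and the mock file 132 (130 kept). The ratio therefore depends on the file kept. The cuprizone value was like those of 5.5 weeks, while the mock value was higher than in any mock library of the other batch. At 7 weeks Osmr stood at 11.2 CPM in the cuprizone library and 0.661 CPM in the mock library, 17-fold apart (10.7 to 28.6). Of 2538 genes at 0.5 to 2 CPM in that mock library, 30.7% exceeded it by 2-fold or more in the cuprizone library, and 4.77% by 8-fold or more.

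Il6st (ENSMUSG00000021756, chromosome 13), which encodes gp130 itself, stood at 84.5, 68.7 and 71.2 CPM in the 5.5-week cuprizone libraries and at 64.0 and 54.7 CPM in the mock libraries. All cuprizone values were above both mock values, as was true for 13.4% of genes tested, but the log2 difference of 0.33 (SE 0.13) did not pass (edgeR adjusted p = 0.361). At 5 weeks the order was the opposite, 28.8 CPM in the cuprizone library against 42.8 CPM in the mock library, 1.49-fold lower (1.34 to 1.65). At 7 weeks the values were 82.3 and 53.9 CPM, 1.53-fold higher (1.43 to 1.63).

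Lifr (ENSMUSG00000054263, chromosome 15), the partner of gp130 for LIF and for the CNTF group, overlapped between diets at 5.5 weeks. The cuprizone libraries held 82.2, 64.1 and 73.7 CPM and the mock libraries 74.4 and 59.5 CPM, a log2 difference of 0.12 (SE 0.14, edgeR adjusted p = 0.804). At 5 weeks Lifr was 28.8 CPM in the cuprizone library and 62.3 CPM in the mock library, 2.16-fold lower (1.97 to 2.38). At 7 weeks the pair was nearly level, at 58.5 and 56.0 CPM (counting interval of the fold 0.976 to 1.12).

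Cntfr (ENSMUSG00000028444, chromosome 4), the membrane-anchored binding chain for CNTF, was further from its mock level at 5 weeks than Lifr or Il6st. It stood at 11.3 CPM in the cuprizone library and 36.6 CPM in the mock library, 3.25-fold lower (2.81 to 3.76). At 5.5 weeks the values were 43.3, 52.9 and 38.2 CPM with cuprizone and 48.6 and 59.6 CPM with mock diet. These groups overlapped, and the log2 difference of -0.28 (SE 0.15) did not pass (edgeR adjusted p = 0.554). The 7-week libraries held 56.2 and 52.4 CPM.

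Il6ra (ENSMUSG00000027947, chromosome 3), the chain that binds interleukin 6, was scarce in every library but 1. At 5.5 weeks it stood at 2.78, 1.67 and 2.82 CPM with cuprizone and at 2.05 and 0.923 CPM with mock diet, which overlapped (log2 difference 0.69, SE 0.35, edgeR adjusted p = 0.524). At 5 weeks the libraries held 5 and 9 counts. The 7-week cuprizone library held 15.4 CPM against 1.39 CPM in its mock library, 11.1-fold higher (8.00 to 15.7). This is the library with 762 CPM of microglial markers, against 43.9 CPM in the 7-week mock library. A gene on the opposite strand shares 242 exonic bases with Il6ra, and the strand used in counting is not given in the sources used here.

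The receptor chains can also be set against gp130 within each library, as CPM per kb relative to that of Il6st. Osmr was 2.58% and 2.45% of Il6st in the 5.5-week mock libraries and 9.66%, 11.3% and 9.77% in the cuprizone libraries. It was 13.6% in the mock and 28.1% in the cuprizone library at 5 weeks, and 1.12% and 12.5% at 7 weeks. Lifr was 112% and 120% of Il6st in the 5.5-week mock libraries and 96.1% to 107% in the cuprizone libraries, and the pairs of the other weeks stood at 150% and 103% (5 weeks) and 107% and 73.3% (7 weeks), mock first. Cntfr was 303% and 434.9% of Il6st in the 5.5-week mock libraries and 204.6%, 307% and 213.9% in the cuprizone libraries, which overlapped. Its pairs stood at 341.3% and 156.4% (5 weeks) and 387.9% and 272.5% (7 weeks), mock first. Il6ra was 4.12% and 2.17% in the 5.5-week mock libraries and 3.12% to 5.09% in the cuprizone libraries. Its 7-week pair stood at 3.32% and 24.05%. Relative to gp130, Osmr was thus higher with cuprizone in each of the 3 weeks, and Lifr was lower in each.

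Jak1 (ENSMUSG00000028530, chromosome 4), the main kinase bound to gp130, was the most abundant member per length and did not separate the diets at 5.5 weeks. It stood at 230.8, 194 and 221 CPM with cuprizone and at 225 and 180 CPM with mock diet, a log2 difference of 0.08 (SE 0.13, edgeR adjusted p = 0.871). At 5 weeks it was 175 CPM in the cuprizone library and 130.1 CPM in the mock library, 1.35-fold higher (1.28 to 1.41). At 7 weeks the libraries held 172 and 174 CPM, a log2 difference of -0.01 that became 0.31 with library totals in place of TMM scaling.

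Jak2 (ENSMUSG00000024789, chromosome 19), a second kinase of these receptors, overlapped at 5.5 weeks, with 16.3, 18.3 and 12.4 CPM in the cuprizone libraries and 14.2 and 16.7 CPM in the mock libraries. Its log2 difference was 0.01 (SE 0.18, edgeR adjusted p = 0.987). The 5-week libraries differed more, 14.6 CPM with cuprizone against 6.82 CPM with mock diet, 2.14-fold higher (1.75 to 2.62). That mock value was the lowest of the 9 libraries. The 5-week mock file left out held 208 counts of Jak2 (140 in the library kept), and the cuprizone files 491 and 335 (328 kept). This ratio too depends on the file kept. At 7 weeks Jak2 stood at 21.4 and 16.1 CPM, 1.33-fold higher (1.18 to 1.51).

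Stat3 (ENSMUSG00000004040, chromosome 11), the transcription factor of the pathway, rose at 5.5 weeks. Its level was 167, 143 and 140 CPM in the cuprizone libraries and 98.2 and 97 CPM in the mock libraries. The groups did not overlap, at 149.8 ± 14.7 CPM (SD, n = 3) against 97.6 ± 0.88 CPM (SD, n = 2). The log2 difference was 0.61 (SE 0.11) with an edgeR adjusted p of 0.0213. The call was lost without mock replicate 1 (adjusted p = 0.0991), without mock replicate 3 (0.134) or without cuprizone replicate 1 (0.107), while the log2 difference stayed between 0.53 and 0.66 over 16 alternatives.

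The gap for Stat3 was widest at 5 weeks, 189 CPM in the cuprizone library against 69.8 CPM in the mock library, 2.71-fold (2.55 to 2.87). At 7 weeks it was 119 CPM against 96.6 CPM, 1.23-fold (1.17 to 1.30). All 5 cuprizone libraries lay above all 4 mock libraries. Exons of Stat5a on the opposite strand share 72 bases with it.

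Socs3 (ENSMUSG00000053113, chromosome 11), the feedback inhibitor that binds gp130 and JAK, also rose at 5.5 weeks. It stood at 6.55, 5.56 and 5.36 CPM in the cuprizone libraries and at 1.66 and 1.88 CPM in the mock libraries. Each cuprizone library was well above both mock libraries, and the means were 5.82 ± 0.636 CPM (SD, n = 3) and 1.77 ± 0.157 CPM (SD, n = 2). The log2 difference was 1.71 (SE 0.22) with an edgeR adjusted p of 0.00275, called in 16 of 16 alternatives.

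The 5-week libraries held 182 and 10 counts of Socs3, 8.08 CPM with cuprizone and 0.487 CPM with mock diet. That is 16.6-fold higher, with a counting interval of 8.82 to 35.2. The 5-week files left out as repeats held 24 counts with mock diet and 226 and 188 with cuprizone. The ratio therefore depends on the file kept, which the interval does not cover. At 7 weeks the values were 8.61 and 2.89 CPM, 2.98-fold higher (2.32 to 3.87). Cuprizone values of the 3 weeks thus lay between 5.36 and 8.61 CPM, while the mock values ranged from 0.487 to 2.89 CPM.

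**Figure D3:**
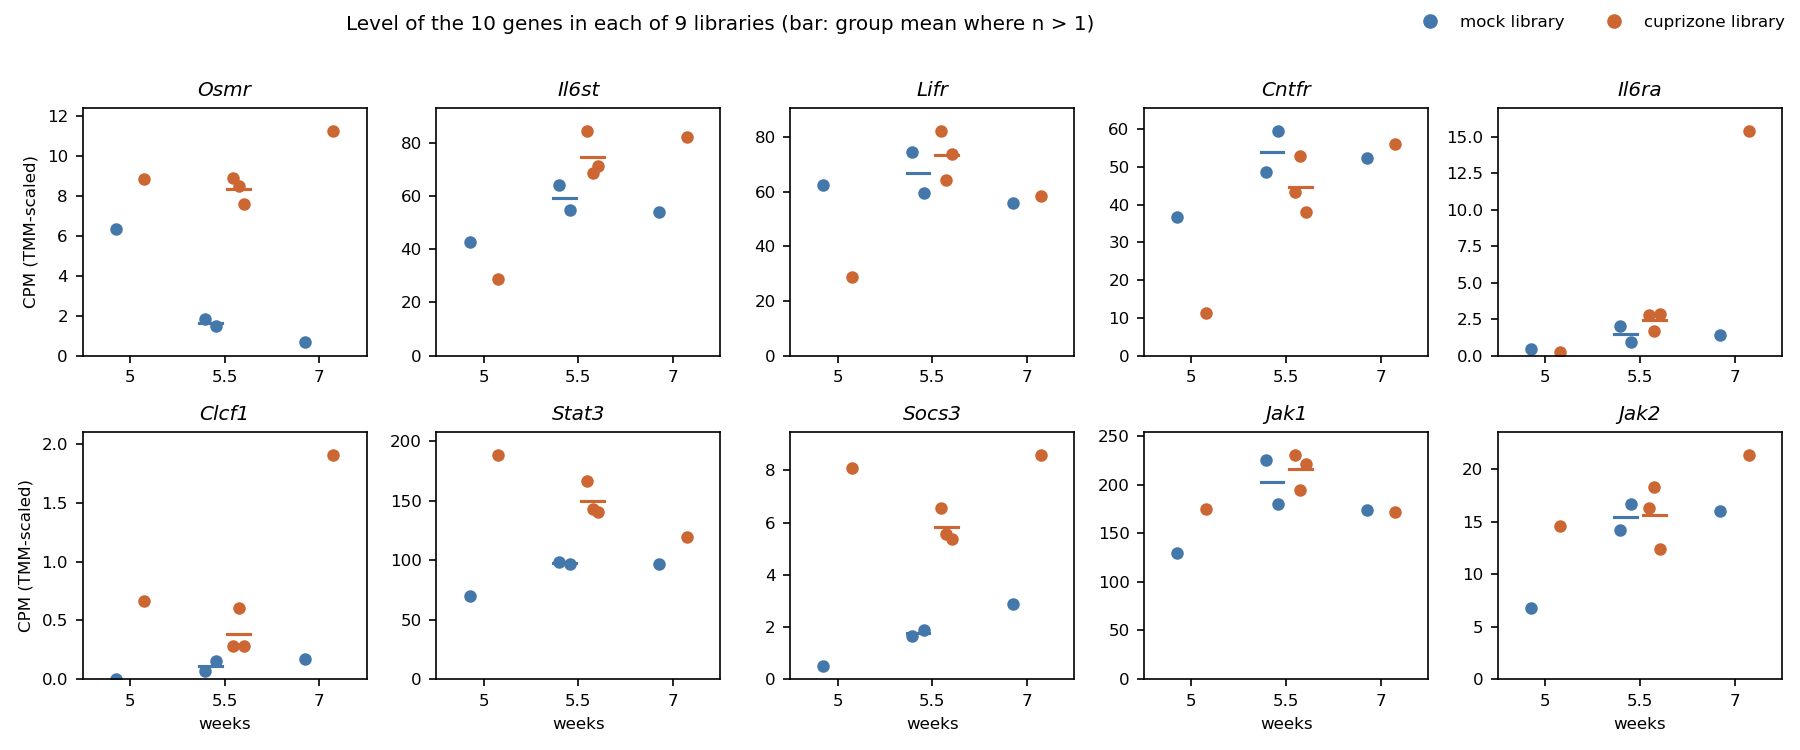
TMM-scaled CPM of each gene in the 9 libraries, by week (blue mock, orange cuprizone, bars for means where a group has more than 1 library). Among these 9 libraries, Osmr, Stat3, Socs3 and Clcf1 are higher in every cuprizone library than in every mock library. Il6ra stands out in the 7-week cuprizone library at 15.4 CPM.

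Stat3 and Socs3 were both called higher at 5.5 weeks, as was Osmr, and the sequence before the start sites of Stat3 and Socs3 is shown. Whether these genes are regulated together was not tested. Both windows are the 250 bases before the RefSeq transcript start on the minus strand of mouse build GRCm38.p6, at chr11:117969367-117969616 for Socs3 and chr11:100939541-100939790 for Stat3. Capitals mark matches to TTCNNNGAA, the core of a STAT binding site, which reads the same on both strands.
Socs3: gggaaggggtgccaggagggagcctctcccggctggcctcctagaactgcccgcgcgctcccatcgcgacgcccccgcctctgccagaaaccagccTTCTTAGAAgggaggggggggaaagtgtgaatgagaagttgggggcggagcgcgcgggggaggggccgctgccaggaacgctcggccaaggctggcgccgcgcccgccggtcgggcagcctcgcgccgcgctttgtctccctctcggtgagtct
Stat3: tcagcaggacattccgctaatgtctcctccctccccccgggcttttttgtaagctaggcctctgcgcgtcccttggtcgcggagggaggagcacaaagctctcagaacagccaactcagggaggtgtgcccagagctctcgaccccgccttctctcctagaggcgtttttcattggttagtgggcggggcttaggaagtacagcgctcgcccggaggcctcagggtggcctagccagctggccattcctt
Socs3 holds 1 match, TTCTTAGAA, from 154 to 146 bases before the start, and the Stat3 window holds none. RefSeq windows were found for 9 of the 10 genes (15 windows), and that of Socs3 was the only 1 with a match. Over all 32851 windows of that length, 7.02% hold at least 1. The RefSeq start of Socs3 lies 180 bases upstream of the first protein-coding start in GENCODE M21, while the starts of Stat3 are the same in both. A match describes letters only, and binding was not measured.

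Set side by side, 3 of the 9 members that reached 5 CPM in any library had all 5 cuprizone libraries above all 4 mock libraries, namely Osmr, Stat3 and Socs3. This was true of 2.87% of 12535 genes at that level. Socs3 was at most 2.89 CPM in the mock libraries and so entered only through the cuprizone libraries. The count is therefore given as a description. In this bulk RNA, more cells of a type and more RNA per cell cannot be told apart. Markers of all cell types were read beside the 3 members that rose at 5.5 weeks. Of 10 astrocyte markers, only Gfap was called higher, and their median log2 difference was -0.12. Microglial markers summed to 45.3 to 58.2 CPM with cuprizone and 33.3 to 34.4 CPM with mock diet, and 1 of 11 tested, Lyz2, was called higher, while 6 were higher and 0 lower at an unadjusted p under 0.05 (edgeR). Mature oligodendrocyte markers summed to 19070 to 23160 CPM against 15880 and 16920 CPM, with Mog and Mag called higher and Aspa lower of 10. Precursor markers summed to 298.1 to 364.6 CPM against 234.6 and 238 CPM, with Gpr17 called higher of 7, and choroid plexus and ependyma markers to 68.9 to 84.3 CPM against 37.7 and 46.5 CPM, with Ttr called higher of 6 tested. Endothelial markers summed to 3.24 to 6.27 CPM against 4.88 to 7.18 CPM, with 0 of 5 tested called by edgeR, DESeq2 or limma-voom (at an unadjusted p under 0.05, 0 by edgeR and DESeq2 and 1 by limma-voom, lower). The 8 lymphocyte and neutrophil markers summed to 0.739 to 1.03 CPM against 0.269 and 0.283 CPM, and the 1 tested, Ptprc, had a log2 difference of 1.61 (edgeR adjusted p = 0.112). Neuron markers summed to 7713 to 8503 CPM against 7755 and 8349 CPM, with 0 of 8 called. Pericyte and fibroblast markers summed to 41.8 to 74.8 CPM against 78.6 and 53.1 CPM, with 0 of 7 tested called. At an unadjusted p under 0.05 (edgeR), precursor markers had 5 higher and 0 lower, and mature oligodendrocyte markers 4 higher and 2 lower. Choroid plexus and ependyma markers had 3 and 0, astrocyte markers 1 and 2, and lymphocyte and neutrophil markers 1 and 0. Neuron markers had 0 and 0, and pericyte and fibroblast markers 0 and 1. The part of these other cells in the members' changes was not tested.

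At 5 weeks, before withdrawal, members were found on both sides. Of the 8 at 5 CPM or more in either library, Stat3, Socs3 and Jak2 were at least 2-fold higher in the cuprizone library, and Lifr and Cntfr at least 2-fold lower. Over 11524 genes at that level, 7.89% reached 2-fold in the upward and 13.1% in the downward direction. Socs3, at 0.487 CPM in the mock library, entered only through the cuprizone library, so the count of members is given as a description. For Socs3, Jak2 and Osmr the 5-week ratio also depends on which of the repeating files was kept. Scaling by library totals adds 0.16 to a log2 difference of this pair (less for genes with few counts), gives 1236 higher and 1246 lower genes in place of 909 and 1505, and takes Lifr to -0.95, short of 2-fold. The gp130 receptors measured (5 of 7) had a median log2 difference of -0.57, beside -0.07 over all genes.

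Other cells differed in the same pair. Mature oligodendrocyte markers summed to 9792 CPM with cuprizone and 15470 CPM with mock diet, and 7 of 10 were at least 2-fold lower. Microglial markers summed to 62.5 and 37.8 CPM, and endothelial markers to 0.666 and 4.82 CPM. Of 10 astrocyte markers, Gfap was over 2-fold up and Fgfr3 over 2-fold down, with a median of -0.55, close to that of the receptors. The part of these differences in the members' values was not tested.

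At 7 weeks, Osmr, Il6ra and Socs3 were at least 2-fold higher in the cuprizone library. They were 3 of the 9 members at 5 CPM or more in either library, which left out Clcf1. All 3 were under 5 CPM in the mock library and so entered the count only through the cuprizone library, and nothing is read from their number. The share over 12067 genes was 11.1% higher and 3.31% lower. With library totals a log2 difference of this pair gains 0.33, less for genes with few counts, and the split becomes 2197 higher and 112 lower genes in place of 1342 and 400. Beside these members, all 12 microglial, all 8 endothelial and 6 of the 7 measured pericyte and fibroblast markers were at least 2-fold higher in the same library.

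**Figure D4:**
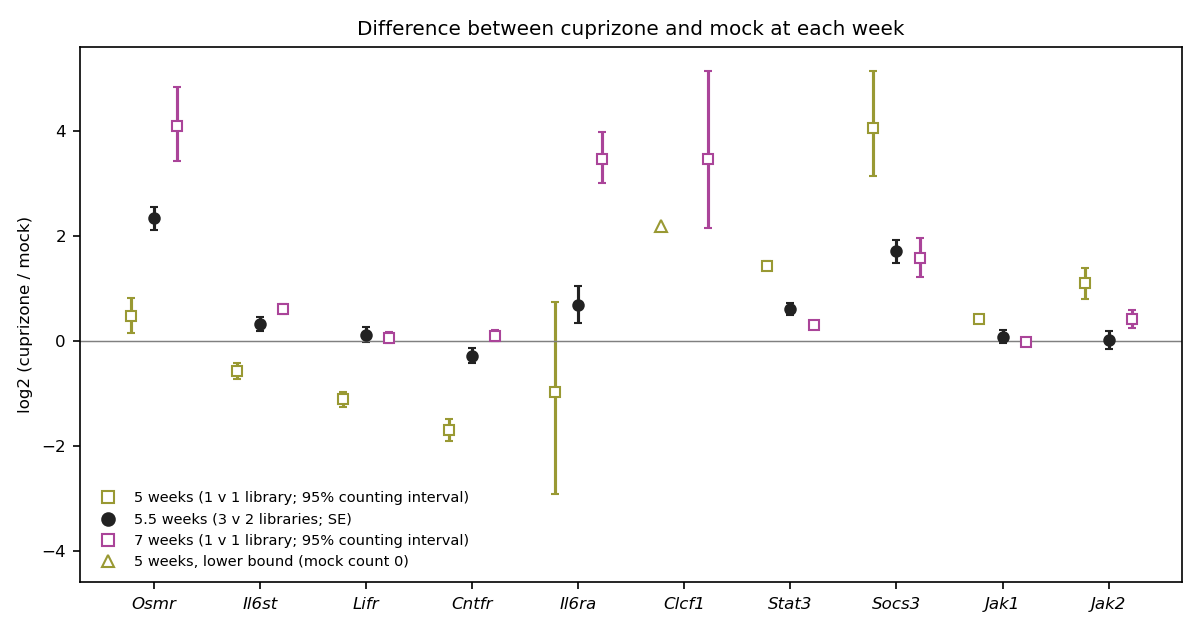
Log2 of cuprizone over mock for each gene: open squares are single pairs at 5 and 7 weeks with 95% counting intervals, filled circles the 5.5-week edgeR estimates with SE, and the triangle a lower bound. Osmr stands at 1.40-fold in the 5-week and 17-fold in the 7-week pair, and Stat3 at 2.71-fold and 1.23-fold.

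Whether the difference between diets itself changed from week to week was tested in 1 edgeR fit of the 9 libraries, where groups with a single library are assumed to vary like the others. From 5 to 5.5 weeks the difference shifted upward for 4 receptors: Osmr by 1.86 (SE 0.37, adjusted p = 0.000978), Il6st by 0.91 (0.00982), Lifr by 1.24 (0.00118) and Cntfr by 1.42 (0.000937) on the log2 scale. It shifted downward for the 3 members that were at least 2-fold higher with cuprizone than with mock diet at 5 weeks. The shift was -0.82 for Stat3 (0.00887), -2.33 for Socs3 (0.0023) and -1.07 for Jak2 (0.0223). Among 20292 genes, 14.3% shifted up and 8.91% down (2892 and 1809 genes, or 2487 and 2486 with library totals). These 2 weeks lie in different batches, so week and batch cannot be told apart. For Jak2 the call was lost with DESeq2 (adjusted p = 0.0595) and without mock replicate 3 of 5.5 weeks (0.0783).

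Between 5.5 and 7 weeks, both in batch 2, the difference grew for Osmr by 1.73 (SE 0.44, edgeR adjusted p = 0.0122) and for Il6ra by 2.76 (adjusted p = 0.00399). Over all genes, 10.3% shifted up and 6.92% down (2080 and 1405 genes, or 3159 and 250 with library totals). The call for Osmr was lost without mock replicate 1 of 5.5 weeks (adjusted p = 0.0542), and both rest on the 7-week cuprizone library that stood apart. For Stat3 (-0.32, adjusted p = 0.321) and Socs3 (-0.14, adjusted p = 0.847) the shift did not pass.

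The wider pathway was read from 77 genes in 7 lists, which include the 10 members. Of the other 67, 61 were tested at 5.5 weeks, 9 were called higher and 0 lower by edgeR, DESeq2 and limma-voom alike, and 16 were higher and 0 lower at an unadjusted p under 0.05 (edgeR). Most of the 9 come from the list of STAT3 targets, which was chosen with earlier results of these libraries known, so the count is not independent evidence beside the 1.08% called higher over all genes. At 5 weeks 42 were measured, with 14 at least 2-fold higher and 0 lower (7.89% and 13.1% over all genes). At 7 weeks 44 were measured, with 9 higher and 4 lower (11.1% and 3.31% over all genes). Some of these reached 5 CPM only in the library where they were high.

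Ligand RNAs were scarce throughout. Il6, Osm, Cntf, Ctf2, Il27 and Ebi3 were each under 0.7 CPM in every library, and Lif reached 0.774 CPM at most. Ctf1, which encodes cardiotrophin 1, a ligand for Lifr and gp130, was the only ligand to reach 5 CPM, at 6.48 CPM in the 5-week cuprizone library against 1.56 CPM in its mock library, 4.16-fold (2.82 to 6.31). At 5.5 weeks it stood at 2.89, 2.13 and 1.75 CPM with cuprizone and 0.920 and 2.19 CPM with mock diet, which overlapped. At 7 weeks it stood at 3.83 and 0.592 CPM (112 and 17 counts), 6.47-fold (3.87 to 11.5), in the library that stood apart. Of 4 ligands tested at 5.5 weeks, 0 were called by edgeR, DESeq2 or limma-voom, also 0 at an unadjusted p under 0.05.

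Among the remaining receptors, Il11ra1, the binding chain for interleukin 11, ranged from 38.2 to 58.2 CPM in the 9 libraries. Il27ra, the chain for interleukin 27, named after its values were seen, had 0 counts in the 5-week cuprizone library and 29 in the mock library (1.41 CPM), and it stood between 0.248 and 1.11 CPM in the other 7 libraries. The kinase Tyk2 was at 14.9 CPM in the 7-week cuprizone library and 5.88 CPM in its mock library, 2.53-fold (2.11 to 3.04), and Jak3, a kinase best known in lymphocytes, at 5.64 and 2.5 CPM. Neither was called at 5.5 weeks.

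Stat6, the factor downstream of interleukin 4, was 2.92-fold higher at 5 weeks (6.26 against 2.14 CPM). It reached 5 CPM in that pair only through the cuprizone library. That cuprizone value was below the mock levels of the other batch, 8.13 CPM (mean) at 5.5 weeks and 9.53 CPM at 7 weeks.

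Of the 17 inhibitors, Socs3 was the only one called at 5.5 weeks. At 5 weeks Socs4 (17.6 against 4.48 CPM), Socs6 (27.3 against 9.21 CPM) and Pias3 (32.1 against 15.7 CPM) were also at least 2-fold higher with cuprizone. With them was Shc1 of the SHP2 and adaptor list (8.44 against 2.39 CPM). Socs4 and Shc1 reached 5 CPM there only through the cuprizone library. Mock levels in the other batch were higher for all 4 genes. At 5.5 weeks (mean) and 7 weeks they were 7.7 and 9.74 CPM for Socs4 and 19.3 and 22.8 CPM for Socs6. For Pias3 they were 30.75 and 32.5 CPM, and for Shc1 6.06 and 6.23 CPM. At 7 weeks the phosphatase genes Ptpn6 (13.6 against 0.557 CPM) and Ptpre (37.6 against 13.6 CPM) passed 2-fold in the library with high microglial markers. Ptpn6 encodes SHP1, a phosphatase best known in blood and immune cells.

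The list of 25 genes named as STAT3 targets held 9 called higher at 5.5 weeks: Socs3, Fos, Gfap, Vim, Serpina3n, A2m, Timp1, Steap4 and Ifitm3. Their choice drew on earlier results of these libraries, so the count is not independent evidence of a direction beside the 1.08% called higher over all genes. The call for Steap4 was lost in 4 of 15 alternatives (log2 difference 2.96 and adjusted p = 0.111 with all 6 libraries as deposited) and that for Timp1 in 2 of 15, without either mock library. Both genes had 0 or 1 count in each 5.5-week mock library. The median of the list was 0.53. Of the called genes, Fos was the only immediate early gene, at 36.3, 40.9 and 38.3 CPM with cuprizone and 18.5 and 22.6 CPM with mock diet. Its call was lost without mock replicate 1 (edgeR adjusted p = 0.078), and in the other weeks it stood lower with cuprizone, at 66.4 against 89.5 CPM at 5 weeks and 38.9 against 68.7 CPM at 7 weeks.

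Several STAT3 targets known from other cells, named here after their values were seen, did not pass at 5.5 weeks. Myc stood at 8.71 to 11 CPM with cuprizone and 7.43 and 8.88 CPM with mock diet (edgeR adjusted p = 0.557), and Cebpd at 29.0 to 41.9 CPM against 24.0 and 27.1 CPM (adjusted p = 0.179). At 5 weeks both were over 3-fold higher with cuprizone, Myc at 19.4 against 5.75 CPM and Cebpd at 86.3 against 27.1 CPM. Bcl2l1, Bcl6, Mcl1, Ccnd1, Hif1a and Pim3 had log2 differences between -0.15 and 0.17 at 5.5 weeks, none called.

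At 5 weeks 9 of the 17 measured targets were at least 2-fold higher and 0 lower, with a list median of 1.44, beside 7.89% and 13.1% over all genes. Socs3, Lcn2 and A2m were measured there only through the cuprizone library, so the count is given as a description. At 7 weeks the list was divided, with 6 of 17 higher (Socs3, Il4ra, Gfap, Vim, Serpina3n and A2m) and 4 lower. Over all genes, 11.1% were higher and 3.31% lower. Socs3, Il4ra and A2m were measured at 7 weeks only through the cuprizone library, so this count too is a description. The 4 lower genes were Junb (145.8 against 531.7 CPM), Bcl6 (14.0 against 38.7 CPM), Pim3 (58.9 against 134.8 CPM) and Ccnd1 (86.2 against 173 CPM). With library totals 2 pathway genes in place of 4 were lower.

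**Figure D5:**
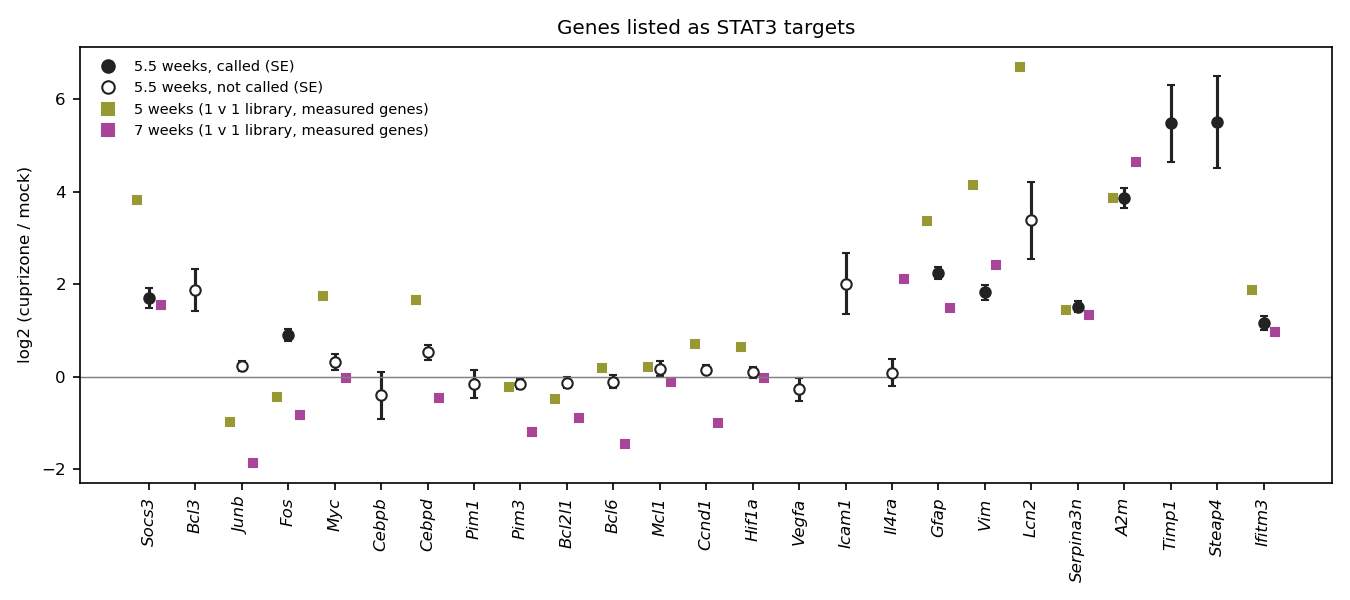
Log2 of cuprizone over mock for 25 genes listed as STAT3 targets: circles are 5.5-week edgeR estimates with SE (filled where called), squares the single pairs at 5 and 7 weeks for genes at 5 CPM or more. The 9 filled circles all lie above 0, and 4 of the 7-week squares lie at or below a log2 value of -1.

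The genes whose pattern over the 9 libraries was nearest to each of the 3 risen members were found by the root mean square difference of centred log2 CPM among 12534 genes. For Osmr they were Cyp1b1 (0.456), Cd44 (0.568) and Gbp9 (0.588), against a median of 1.42 over all genes. For Stat3 they were Naprt (0.0996), Aldh3b1 (0.11) and Zbtb1 (0.154), against 0.550. For Socs3 they were Asap3 (0.368), Akr1b8 (0.405) and Aspg (0.436), against 1.30. The 9 libraries share batch, week and diet structure, and these distances describe that pattern only.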

How the data were processed

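Ribosome-bound RNA from mouse corpus callosum was sequenced in 17 libraries, 3 cuprizone per week and 2 (5 weeks) or 3 mock, and the files hold whole-number read counts per gene as deposited by the authors. Reads were aligned with STAR 2.5.4b and counted with featureCounts 1.6.0, per the submitters' processing notes, which list GRCm38/mm10 beside GRCm39/mm39, so the only coordinates given are those of promoter windows from RefSeq on GRCm38.p6. Strand, multimapping and annotation settings are not given in the sources used here. The other 8 deposited files, whose values repeat those of another library of the group, were left out (rule: over 40% of genes with at least 500 counts within 10 counts of the library repeated, the lowest total being kept), so 9 libraries entered.

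Symbols came from the reference gene tables (99.4% of identifiers matched in batch 1, 94.0% in batch 2). At 5.5 weeks edgeR 4.0.16 (R 4.3.3) fitted TMM-scaled counts by quasi-likelihood with a minimum count of 10, and p-values were adjusted by Benjamini-Hochberg over all genes tested, with a threshold of 0.05. At 5 and 7 weeks, with 1 library per group, ratios of CPM carry exact Clopper-Pearson 95% intervals, which cover counting error only, and genes at 5 CPM or more were counted as at least 2-fold apart with a prior count of 2. Interactions came from a fit of all 9 libraries. The edgeR steps were tested on simulated data. DESeq2 1.42.0, limma 3.58.1, other scalings, filters, library sets and left-out libraries were the alternatives. Members and lists were chosen with earlier results of these data known. All members are named, list genes are named where called or at least 2-fold apart (the ligands, kinases and the named targets that did not pass are given as levels), and the 3 most like genes by distance. The values of 1 gene of the wider lists are not reported here.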

Additional observations from a re-analysis of the deposited data

Results flagged for a closer look

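For 9 pairs of gene and week the difference between cuprizone and mock tissue itself differed between weeks in the edgeR fit of the 9 libraries. From 5.5 to 7 weeks it grew by 1.73 on the log2 scale for Osmr and by 2.76 for Il6ra. From 5 to 5.5 weeks it grew by 1.86 for Osmr, 0.91 for Il6st, 1.24 for Lifr and 1.42 for Cntfr, and it changed by -0.82 for Stat3, -2.33 for Socs3 and -1.07 for Jak2. The weeks 5 and 5.5 belong to different batches, and each of the 5-week and 7-week groups is a single library.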

How the results depend on the processing

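At 5.5 weeks Osmr and Socs3 were called in 16 of 16 alternatives and Stat3 in 13 of 16, and the 6 tested members not called stayed so in all 16. Genes called higher, 173, became 381 without a filter on low counts, 282 with all 6 libraries of the week as deposited, 504 with all 17 libraries and 49 to 189 with 1 replicate left out. Genes called lower, 63, became 162 without the filter, 152 with 17 libraries and 16 to 86 with 1 left out, and pathway genes called higher, 12, became 7 to 13. That last range is for 1 replicate left out, while 16 pathway genes were called higher without the filter and 16 with all 17 libraries. With the replicate number as a block, 481 genes were higher and 269 lower, 16 pathway genes were higher, no member's call changed and Jak2 was -0.12. The deviations of same-numbered libraries had correlations of 0.04 for number 1 and -0.08 for number 3. The mock group of 5.5 weeks held too few libraries for these values to show or exclude pairing, so no conclusion is drawn from them. Among uncalled members, Jak2 was -0.002 with limma-voom and -0.113 to 0.158 with 1 replicate left out, Lifr -0.025 to 0.304 and Jak1 -0.065 to 0.262.

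For the change from 5.5 to 7 weeks, 2080 genes larger and 1405 smaller became 3159 and 250 with library totals, 887 and 745 with DESeq2, 5560 and 4287 with 17 libraries, and 1077 to 2613 and 766 to 2319 with 1 replicate left out. Library totals gave 0.267 for Lifr, 0.017 for Stat3, 0.19 for Socs3 and 0.23 for Jak1, all with the opposite sign to the TMM value. DESeq2 gave 0.015 for Lifr, and leaving out 1 replicate gave Lifr -0.237 to 0.085 and Jak1 -0.273 to 0.047. From 5 to 5.5 weeks, 1809 smaller became 1094 with DESeq2 and 3129 with 17 libraries.

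At 5 weeks, 909 genes higher and 1505 lower became 1764 and 2451 from 1 CPM, and by edgeR calls 2959 and 3760 in the fit of 9 libraries, 4894 and 5777 with 17, and 3217 and 3445 without the 7-week cuprizone library, an alternative added after the data were seen. Pathway genes higher, 17, became 31, 36 and 31 in those 3 fits, and lower, 2, became 1 with totals, 4 from 1 CPM and 5, 11 and 4 in the fits. At 7 weeks, 1342 higher and 400 lower became 2197 and 112 with totals, 3201 higher from 1 CPM, 4860 and 3120 in the fit of 9 and 8648 and 5738 with 17. Pathway genes higher, 12, became 19 from 1 CPM, 28 and 39, and lower, 4, became 2 with totals, 9 and 13. The cause of these shifts was not tested. Depth limits Clcf1 and, at 5 weeks, Il6ra, with under 20 counts in either 5-week library.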
